A study of Rattus norvegicus with 24 samples.

Results

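The question here was whether fentanyl was associated with a different change in the ventral tegmental area (VTA) than in the nucleus accumbens (NAc) of the same rats. Total RNA was sequenced from bilateral tissue punches of Sprague Dawley rats. The NAc was taken with a punch of 2.16 mm and the VTA with a punch of 1.19 mm inner diameter, and RNA integrity numbers ran from 8.0 to 9.2 over the whole series. Members were chosen as the rats that gave a library from each region, which were 10 of 14 rats and 20 of 24 libraries. They comprised 3 fentanyl males (animal codes N1, N2 and N3), 2 saline males (SM1 and SM3), 3 fentanyl females (L1, L2 and L7) and 2 saline females (SF1 and SF2). The code series N and SM held only males and L and SF only females, so that cohort and sex cannot be told apart. The rats were killed in place of a last choice session, and the series title concerns withdrawal from opioids and the choice of fentanyl over food. Age, dose and schedule are not given in the labels. Each of these 10 rats served as its own reference for the regional difference, and the remaining 4 of the 24 libraries were NAc libraries of the other 4 rats.

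The VTA holds the cell bodies of midbrain dopamine neurons, and the NAc is a striatal area that receives their axons. Fentanyl is an agonist of the mu opioid receptor. In the VTA this receptor sits largely on inhibitory neurons and their terminals, and in the NAc it is found on spiny projection neurons and their inputs, so opioids act on different cells in the 2 regions. An interaction, as used below, is the VTA minus NAc difference of fentanyl rats minus that of saline rats, with the male and the female cohort at equal weight. A positive interaction means that the level in the VTA relative to the NAc was higher with fentanyl. The tables do not pair Ensembl gene identifiers with names, so features are given by identifier and by the position the tables list, whose genome version was not given in the sources used here. Marker genes of the tissues were therefore not analysed here, and features that differed between the regions served to compare the punches.

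Total counts were 3460190 to 4774815 in the 10 NAc libraries and 4493742 to 6300965 in the 10 VTA libraries. Counts of features on the Y chromosome were 956 to 1772 in libraries of males and 9 to 41 in libraries of females, matching the labels. No pair of libraries within a group was a copy, with a chi-square per degree of freedom of at least 4.09 over 16 pairs. The NAc library of rat L2 stood apart from the other 9. The 325 features at least 4-fold higher in the VTA as a mean over the 10 rats summed to 5115 CPM (counts scaled to library size, with factors from the trimmed mean of M values) in that library, against 1963 to 2672 CPM in the other 9 NAc libraries. The 431 features at least 4-fold higher in the NAc summed to 40266 CPM in that library and to 53007 to 66327 CPM in the other 9. In the VTA library of L2 the features higher in the VTA summed to 16145 CPM, near the 15877 CPM of SF2 and under the 19721 to 23790 CPM of the other 8 rats. Results are therefore given with and without L2 where it moved them.

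The regional difference of these features overlapped between fentanyl and saline rats, and L2 was the lowest for features higher in the VTA. The median VTA minus NAc difference of the 325 features higher in the VTA was 2.82, 2.69 and 2.92 on the log2 CPM scale in N1, N2 and N3, and 2.71 and 3.0 in SM1 and SM3. In females it was 2.81, 1.49 and 3.0 in L1, L2 and L7, and 2.88 and 2.38 in SF1 and SF2. L2 was lowest, SF2 was next, and the other 8 rats of both treatments overlapped. From the log2 CPM differences, the median interaction over these features was -0.19 with all rats, with 119 of 325 positive, and 0.04 without L2, with 180 of 325 positive. From the edgeR fit it was -0.30 with all rats, with 113 of 325 positive. None of the 325 passed the interaction test; 4 were higher and 13 lower at an unadjusted p under 0.05, 5.23% against 5.68% of all features tested. The 431 features higher in the NAc had per-rat medians of -2.99 to -2.55 in fentanyl and -2.92 to -2.55 in saline rats, which overlapped throughout. Their median interaction from the log2 CPM differences was 0.01 with all rats and -0.07 without L2, and from the edgeR fit 0.03 with all rats. None of them passed, and 32 were higher and 24 lower at an unadjusted p under 0.05 (13.0%), or 25 and 26 of 429 without L2 (11.9%). Both sets were chosen on these libraries, and their shares are given as a description. In bulk punches, fewer cells of a type and less RNA per cell cannot be told apart.

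**Figure D1:**
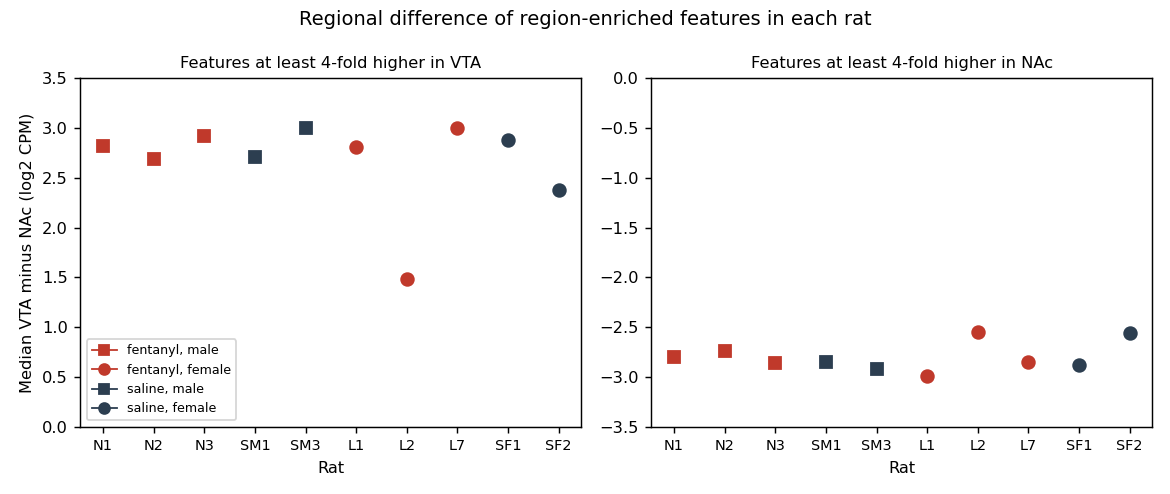
Median VTA minus NAc difference (log2 CPM, y axis) in each of 10 rats (x axis) over 325 features at least 4-fold higher in the VTA (left) and 431 at least 4-fold higher in the NAc (right); red marks fentanyl, dark blue saline, squares males and circles females. L2 lies at 1.49 in the left panel, below the other rats at 2.38 to 3.0.

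No feature showed a region by fentanyl interaction that passed the test over all features. By the quasi-likelihood test of edgeR with rat as a block, 0 of 14795 features (0%) had a Benjamini-Hochberg adjusted p under 0.05, and the lowest adjusted p was 0.368. At an unadjusted p under 0.05 there were 446 positive (3.01%) and 394 negative features (2.66%), 840 in all or 5.68%. Removing the mitochondrial counts left 0 called and 850 at an unadjusted p under 0.05. DESeq2 called 1 feature, with a negative interaction, and limma voom called 0. That feature, on chromosome 9 at 80150211 to 80167033 with a mean of 122 CPM, had a log2 interaction of -1.47 and an adjusted p of 0.00319 by DESeq2, against -1.46 and 0.781 by edgeR; it was singled out after its values were seen. Without the filter on low counts edgeR called 148 features, 71 positive and 77 negative. All 148 were among the features tested in the filtered fit, and the fit without the filter set the prior degrees of freedom to infinity where the filtered fit had a median of 10.8. Leaving out 1 rat gave 0 or 1 calls and 543 (without SM1) to 1158 (without N1) features at an unadjusted p under 0.05.

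The intervals say how large an interaction these 10 rats could have hidden. The median standard error of the log2 interaction was 0.26. For 9184 features (62.1%) the 95% interval lay within a 2-fold difference in either direction, and the share depended on level. It was 94.2% of 1817 features over 100 CPM, 89.5% of 7089 at 10 to 100 CPM and 19.8% of 5653 at 1 to 10 CPM. For most features under 10 CPM the interval thus did not exclude a 2-fold interaction. These intervals are for single features, without adjustment, and do not give what the test over all features could detect at any level. For example, ENSRNOG00000009872, at a mean of 57.1 CPM, had a log2 interaction of 1.04 and an adjusted p of 0.368 by edgeR.

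**Figure D2:**
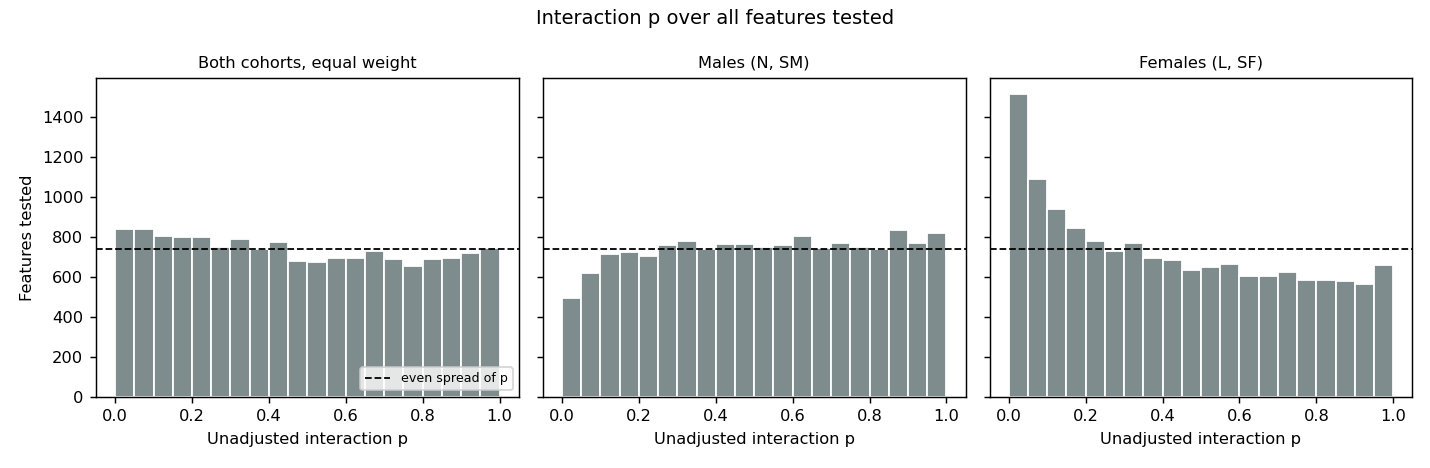
Histograms of the unadjusted interaction p (x axis, 20 bins) over 14795 features (y axis, features per bin) with both cohorts at equal weight, in males and in females; the dashed line marks an even spread. The first bin lies above the line with both cohorts (840 features) and in females (1517) and below it in males.

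The 20 features with the smallest p, 10 in each direction at a mean of 1 CPM or more, were examined as values that did not pass. Their log2 interactions were 0.57 to 3.29 among the positive and -4.00 to -0.47 among the negative ones, with unadjusted p of 3.82e-05 to 0.00197. All 20 had the same sign in males and in females, where 48.1% of all features tested did so. The p of the average over both cohorts chose these features and favours equal signs, so nothing is read from that agreement. In 8 of 10 positive and all 10 negative features the female value was larger in size. Over all features tested the median size was also larger in females, 0.34 against 0.25 in males. The share of all features with a larger female value was not counted, so nothing is read from that count. The fentanyl rats lay wholly above or below the saline rats in 7 of the positive and 5 of the negative features, where 1.07% of all features tested did so (0.595% above and 0.473% below); since the p chose these features, nothing is read from that count. In 8 of 10 positive features the level with fentanyl was lower in the NAc and higher in the VTA than with saline, and in 8 of 10 negative features the reverse held. Choosing features by the interaction favours fentanyl minus saline differences of opposite sign in the NAc and the VTA. The share over all features tested was not counted, so nothing is read from these counts either.

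ENSRNOG00000009872 (chromosome 4, 7355574 to 7387253, plus strand) had the smallest p among positive features. In the NAc it stood at 32.4, 26.1 and 47.1 CPM in fentanyl males N1, N2 and N3 and at 40.1 and 36.3 CPM in saline males SM1 and SM3. Fentanyl females L1, L2 and L7 had 18.3, 39.3 and 28.7 CPM there, and saline females SF1 and SF2 had 36.6 and 54.9 CPM. In the VTA it stood at 68.0, 78.1 and 103 CPM in fentanyl males, 54.5 and 65.2 CPM in saline males, 65.6, 166 and 72.8 CPM in fentanyl females and 56.0 and 53.3 CPM in saline females. In the VTA every fentanyl rat was above every saline rat, though L1 (65.6 CPM) was close to SM3 (65.2 CPM), and in the NAc the treatments overlapped. The share of all features separated by treatment within a region was not counted. Nothing is read from such separations, here or in the features below. The VTA minus NAc difference was 1.06 to 2.07 on the log2 CPM scale in the 6 fentanyl rats (1.49 ± 0.40, mean ± SD) and -0.04 to 0.83 in the 4 saline rats (0.46 ± 0.37), with no overlap. The log2 interaction was 1.04 ± 0.19 (SE), with an adjusted p of 0.368 by edgeR. It was 0.61 in males and 1.48 in females.

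ENSRNOG00000020650 (chromosome 1, 101161252 to 101173174, plus strand) was the lowest in level of the 4, and its direction between regions differed with treatment. In the NAc fentanyl males had 0.284, 1.52 and 0.262 CPM and saline males 7.16 and 3.03 CPM. Fentanyl females had 0.719, 0.694 and 2.23 CPM there, and saline females 3.13 and 10.3 CPM. The 6 fentanyl NAc libraries rested on 1 to 8 counts each, and the 4 saline ones on 10 to 45. In the VTA fentanyl males had 6.60, 5.56 and 2.73 CPM and saline males 2.69 and 2.64 CPM. Fentanyl females had 1.63, 7.39 and 4.68 CPM in the VTA, and saline females 2.85 and 3.09 CPM. The NAc level was lower in every fentanyl rat than in every saline rat, and the VTA ranges overlapped. The VTA minus NAc difference was 1.96 ± 1.00 (log2 CPM, SD, n = 6) with fentanyl and -0.80 ± 0.77 (n = 4) with saline. The log2 interaction was 3.29 ± 0.61 (SE), with an adjusted p of 0.368 by edgeR. The 95% interval ran from 2.00 to 4.58.

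ENSRNOG00000038784 (chromosome 18, 58354648 to 58499836, minus strand) had the smallest p among negative features. In the NAc fentanyl males N1, N2 and N3 had 13.1, 12.4 and 7.33 CPM, and saline males SM1 and SM3 had 5.44 and 7.27 CPM. Fentanyl females L1, L2 and L7 had 14.7, 9.49 and 14.8 CPM there, and saline females SF1 and SF2 had 5.29 and 5.51 CPM. In the VTA fentanyl males had 22.2, 13.4 and 11.1 CPM and saline males 29.8 and 20.5 CPM. Fentanyl females had 10.5, 2.00 and 14.7 CPM in the VTA, and saline females 19.6 and 11.8 CPM. In the NAc every fentanyl rat was above every saline rat, in the VTA the treatments overlapped, and the lowest VTA value was that of L2. The VTA minus NAc difference was -0.18 ± 1.01 (log2 CPM, SD, n = 6) with fentanyl and 1.67 ± 0.56 (n = 4) with saline. The log2 interaction was -1.84 ± 0.37 (SE), with an adjusted p of 0.533 by edgeR.

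ENSRNOG00000045743 (chromosome 2, 235738416 to 235760352, plus strand) had a larger fentanyl minus saline difference in the NAc than in the VTA. The values were 1.38 and 0.51 on the log2 CPM scale, and neither was tested within its region. There fentanyl males had 86.1, 119 and 53.1 CPM and saline males 36.6 and 32.7 CPM. Fentanyl females had 90.6, 125 and 99.8 CPM in the NAc, and saline females 36.8 and 34.4 CPM. In the VTA fentanyl males had 139, 110 and 66.5 CPM and saline males 66.4 and 70.3 CPM. Fentanyl females had 127, 102 and 104 CPM in the VTA, and saline females 76.9 and 83.5 CPM. All 6 fentanyl NAc libraries lay above all 4 saline ones, and in the VTA N3 lay among the saline rats. The VTA minus NAc difference was 0.19 ± 0.37 (log2 CPM, SD, n = 6) with fentanyl and 1.07 ± 0.17 (n = 4) with saline, with no overlap. The log2 interaction was -0.89 ± 0.18 (SE), with an adjusted p of 0.533 by edgeR. None of the 4 features overlapped another feature of the tables on either strand. Each passed by edgeR without the low-count filter, with adjusted p of 1.44e-07 to 0.000185, in the fit with infinite prior degrees of freedom. None passed by DESeq2 (adjusted p of 0.0602 to 0.189) or by limma voom (0.282 to 0.505). The 4 were chosen by p in these libraries, so nothing is read from these values.

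**Figure D3:**
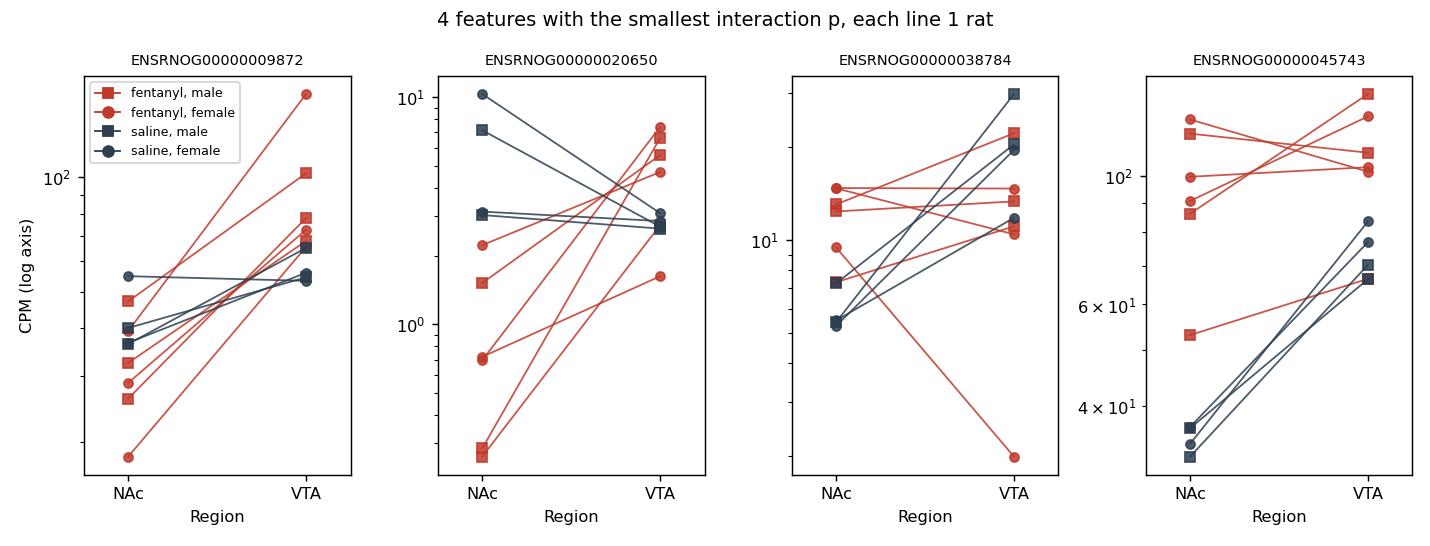
Level in the NAc and the VTA (CPM, log axis, a scale of its own in each panel) of 4 features, with a line for each of 10 rats; red marks fentanyl, dark blue saline, squares males and circles females. The lines of fentanyl rats are steeper upward than those of saline rats in the left pair and flatter or downward in the right pair.

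The 2 cohorts share no rat, and their interactions did not run together. Across 14795 features the rank correlation of the male with the female log2 interaction was -0.03, and 48.1% of features had the same sign; the cohorts share the regions, the fit and its estimate of the spread. At an unadjusted p under 0.05 there were 1517 features in females (10.3%) and 254 positive and 239 negative ones in males (3.33% in all), with 0 at an adjusted p under 0.05 by edgeR in either. Of all features, 4.66% were positive and 5.6% negative at that p in females, and 1.72% and 1.62% in males. Fentanyl rats lay wholly to one side of saline rats in 26.7% of features in females and 20.3% in males. The female count was 1262 without L2 and 895 without SF2, and the male count was 315 without SM3. There were 80 features at an unadjusted p under 0.05 in both, 5.27% of the female and 16.2% of the male features, and 31 of the 80 had the same sign. The share with the same sign rested on single rats: it was 87 of 139 without N1 and 36 of 48 without SM3, against 11 of 64 without N2 and 16 of 117 without SM1. The correlation was 0.05 without N1 and 0.06 without SM3, and -0.09 to 0.00 without any other single rat. The median size of the log2 interaction was 0.34 in females and 0.25 in males.

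**Figure D4:**
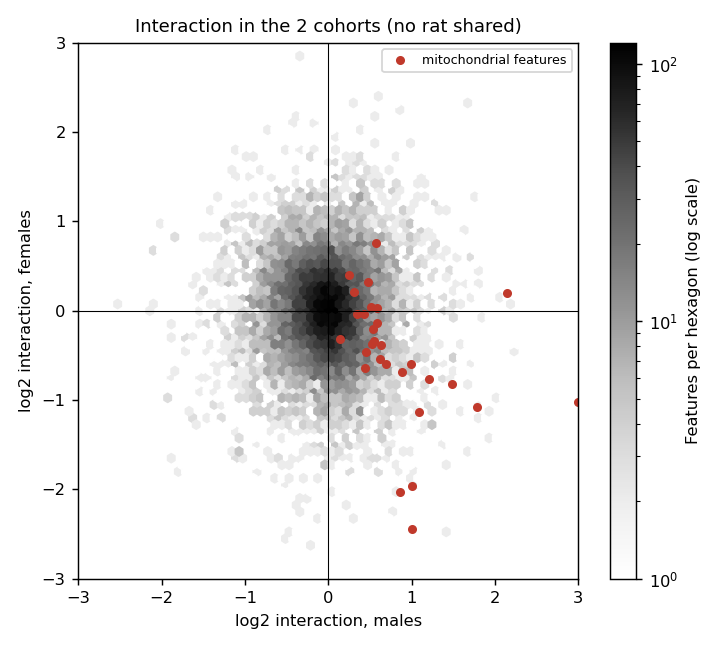
Log2 interaction in males (x axis) and females (y axis) for the features tested, with shade showing features per hexagon on a log scale and red points the mitochondrial features; 221 features lie outside the axes. The cloud has no tilt (rank correlation -0.03), and the mitochondrial features lie to the right of 0.

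The difference between the female and the male interaction was tested directly and no feature passed. Of 14795 features 0 had an adjusted p under 0.05 by edgeR, with a lowest adjusted p of 0.219, and 1139 had an unadjusted p under 0.05 (7.7%), with 3.47% positive and 4.22% negative. DESeq2 called 21, of which 20 had a negative female minus male difference, and edgeR without the low-count filter called 134. The number at an unadjusted p under 0.05 was 623 without SM3. The smallest unadjusted p of all, 3.66e-05, was that of ENSRNOG00000032997, a mitochondrial feature of 69 nt (14062 to 14130, minus strand). Its VTA minus NAc difference was -0.11, -0.04 and -0.04 (log2 CPM) in fentanyl males and -1.09 and -1.99 in saline males, so that fentanyl males were higher. In fentanyl females it was -1.31, -0.55 and -1.18, and in saline females 0.09 and -0.47, so that fentanyl females were lower. The log2 interaction was 1.49 ± 0.28 (SE) in males and -0.82 ± 0.28 in females, a female minus male difference of -2.31 ± 0.39 with an adjusted p of 0.219 by edgeR.

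The mitochondrial genome encodes subunits of the respiratory chain and the transfer RNAs that serve their synthesis, and its transcripts made up 17.6% to 36.7% of counts per library. All 13 mitochondrial features of 200 nt or more were tested, and 17 of 22 under 100 nt. None passed the interaction test, with 1 of the shorter and 0 of the longer features at an unadjusted p under 0.05. The longer features had a median log2 interaction of 0.17, with 11 of 13 positive, against 0.00 over all features, with 49.8% positive. In males all 13 were positive with a median of 0.51, and in females 4 of 13 were positive with a median of -0.20. The shorter features had the same split, with 17 of 17 positive in males (median 1.00) and 3 of 17 in females (median -0.68). Their joint sign is that of 1 genome per library, and the features are not independent of each other. The medians turned on single rats. Without SM3 the median of the longer features was 0.18 in males and -0.01 over both cohorts, and without SF1 it was 0.08 in females. The median of the shorter features in females, on the log2 CPM scale, was -0.56 with 3 of 17 positive, and without L1, a fentanyl rat, it was 0.02 with 9 of 17 positive. Without SF2 the median of the shorter features over both cohorts was -0.03, against 0.26 with all rats on that scale.

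The share of counts taken by the mitochondrial genome showed the same pattern as a single value per rat. In males it went from 28.2% in the NAc to 21.3% in the VTA in N1, from 27.8% to 22.1% in N2 and from 26.9% to 25.4% in N3. In saline males it went from 24.9% to 18.4% in SM1 and from 31.3% to 17.6% in SM3. In females it went from 36.7% to 26.9% in L1, from 31.0% to 25.7% in L2 and from 29.4% to 21.4% in L7. In saline females it went from 22.1% to 21.04% in SF1 and from 26.1% to 19.4% in SF2. The share was lower in the VTA than in the NAc in all 10 rats, and in the VTA all 6 fentanyl rats were above all 4 saline rats. The VTA minus NAc difference was -4.68 ± 2.80 percentage points in fentanyl males and -10.1 ± 5.10 in saline males (mean ± SD, n = 3 and 2), and -7.72 ± 2.28 in fentanyl and -3.87 ± 4.02 in saline females (n = 3 and 2). With cohorts at equal weight the interaction came to 0.792 points. Its two-sided p in an exact permutation test was 0.77, where the 100 regroupings of treatment within cohort can give no less than 0.01. It was 5.44 points in males and -3.86 in females, each with an exact permutation p of 0.3 over 10 regroupings. The female minus male difference of -9.29 points had an exact two-sided permutation p of 0.1 over 120 regroupings of sex within treatment. The interaction was -1.01 without SM3 and -0.628 without SF2, so its sign rested on single saline rats. Without a fentanyl rat it fell to 0.0025 (without N3) and 0.193 (without L2). It was larger without any other single rat, up to 2.59 without SM1.

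**Figure D5:**
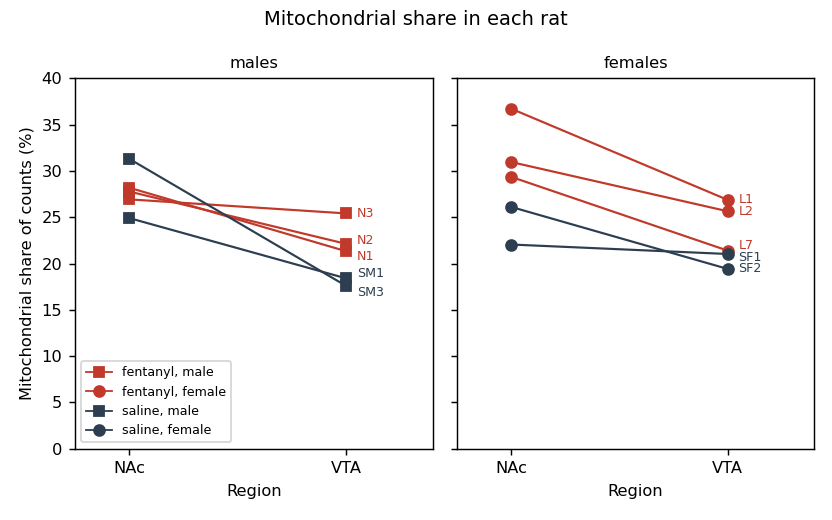
Share of counts from the mitochondrial genome (percent, y axis) in the NAc and VTA, with a line for each rat, males at left and females at right; red marks fentanyl and dark blue saline. In the VTA the fentanyl rats lie above the saline rats in both panels, and in the NAc SM3 (31.3%) is the highest male while both saline females are the lowest females.

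Features on the X chromosome leaned downward in females. Of 519 tested, 9 were positive and 25 negative at an unadjusted p under 0.05 (6.55%, against 5.68% of all features), and 38.7% had a positive log2 interaction against 49.8% of all features. The median log2 interaction was -0.19 in females, with 9 positive and 63 negative at an unadjusted p under 0.05, and 0.04 in males, with 10 and 2. Over all features the shares at that p were 4.66% positive and 5.6% negative in females, and 1.72% and 1.62% in males. None passed the test. The per-rat median VTA minus NAc difference of X features was -0.14 to 0.03 (log2 CPM) in fentanyl males and -0.13 and -0.03 in saline males, which overlapped. In females it was -0.03, -0.34 and -0.13 in L1, L2 and L7 and -0.01 and 0.06 in SF1 and SF2. L2 was lowest and the fentanyl rats were below the saline rats, with L1 near SF1. Of all single features tested, 26.7% had fentanyl females wholly to one side of saline females. On the log2 CPM scale the female median was -0.17 with all rats, with 191 of 519 positive, and -0.11 without L2, with 216 positive. The female counts at an unadjusted p under 0.05 on X were not taken without L2. Over both cohorts without L2, 10 of 515 X features were positive and 18 negative at that p (5.44%, against 5.24% of all features). A downward lean in females was not particular to X. Of 1002 features on chromosome 2, 27 were positive and 81 negative at that p in females. There 46.3% had a positive female log2 interaction, against 36.2% on X and 51.5% of all features.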

How the data were processed

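Each library has a deposited table of counts per Ensembl identifier, not normalized, in the layout of featureCounts per the file headers. The submitters' processing notes list Subread 1.5.2, STAR 2.5.2b, Trimmomatic 0.36, DESeq2 and featureCounts, without saying what each did. How strand and multiply aligned reads were handled, and the annotation, were not given in the sources used here, so features with close paralogs may carry each other's reads. Of 32552 features, 14795 passed the low-count filter (filterByExpr by group). In edgeR 4.0.16 (R 4.3.3) counts were scaled by TMM and fitted with a rat block and a VTA minus NAc term for each of the 4 groups of sex and treatment (6 residual degrees of freedom, robust quasi-likelihood F test, Benjamini-Hochberg). All groups shared an estimate of the spread, and standard errors came from the F statistic. limma 3.58.1 and DESeq2 1.42.0 were alternatives, and the scripts were tested on simulated data. Log2 CPM used a prior count of 2.

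Libraries pair across regions by animal code. The mean correlation of the residuals of a rat's 2 libraries was 0.03 over 10 rats, against -0.02 over 16 pairs from other rats of the group. Members, feature classes and lists were chosen with earlier results of these data known. The naming rule took up to 10 features each way by p at a mean of 1 CPM or more where fewer than 10 were called. Since 0 identifiers matched a symbol in the reference table, at most 2 each way are given by identifier in a comparison, and lists of genes by symbol were not analysed here. The female minus male difference was named by the same rule, applied after seeing the data. Counts cover sampling error of reads without molecular identifiers.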

Additional observations from a re-analysis of the deposited data

Results flagged for a closer look

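In 4 of the features named by identifier, the fentanyl rats of the male and the female cohort lay outside the range of their saline rats in opposite directions. Only the named features were examined for this. Of all features tested, fentanyl rats lay wholly to one side of saline rats in 20.3% in males and 26.7% in females. The share doing so in opposite directions was not counted. The 4 were picked as the smallest p for the female minus male difference, so this separation is partly a result of the choice. The difference was tested, and none of the 4 passed by edgeR, each with an adjusted p of 0.219. The log2 difference was 1.41 ± 0.28 (SE) for ENSRNOG00000062158, a single-exon feature on chromosome 1 (221158098 to 221158792, minus strand). It was 1.68 ± 0.34 for ENSRNOG00000019956 (chromosome 5, 136967650 to 137014430, minus strand). It was -2.31 ± 0.39 for the mitochondrial feature ENSRNOG00000032997. It was -1.99 ± 0.36 for ENSRNOG00000027694, a single-exon feature on chromosome 5 (169021560 to 169022145, minus strand).

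ENSRNOG00000062158 had VTA minus NAc differences of 0.43, 0.68 and 0.66 (log2 CPM) in fentanyl males and 0.72 and 1.24 in saline males. In fentanyl females they were 0.81, 1.01 and 0.87, and in saline females 0.11 and -0.36. The saline rats of the sexes lay farther apart than the fentanyl rats. ENSRNOG00000027694 had differences of -0.20, -0.30 and 0.20 in fentanyl and -0.63 and -1.22 in saline males, and of -0.64, -0.96 and -1.40 in fentanyl and 0.19 and 0.10 in saline females. The VTA minus NAc differences of the 8 features named by identifier and of the mitochondrial share were examined for a rat apart from the others of its treatment. In 18 such sets of 4 or 6 rats 0 held one. Chance gives about 1 in 20 for sets not chosen by their values. These sets pooled the sexes, and their features were chosen by p, so the 0 is not set against that rate. The feature classes and principal components were not among these sets. L2 lay apart in some classes, and L2 and L1 were each lowest on some components.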

How the results depend on the processing

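The count of 0 features with an interaction held in 20 of 23 alternatives, with 1 call by DESeq2, 148 with no low-count filter, and 0 to 1 over the 10 fits without 1 rat (1 without N1). The count of 0 for the female minus male difference became 21 by DESeq2, 134 with no low-count filter and 0 to 6 without 1 rat (6 without L1, 1 each without L2 and SM1). Prior degrees of freedom rose to infinity without the filter; the cause of the DESeq2 calls was not tested. The mitochondrial interaction of 0.792 points was -3.86 in females alone and -1.01 to 2.59 without 1 rat (-1.01 without SM3, -0.628 without SF2); the cause was not tested. With no replicate block for the rat, 0 features passed for the interaction and 809 had an unadjusted p under 0.05. With a region by replicate number term as a further block, 0 passed and 984 had an unadjusted p under 0.05; the residuals of equally numbered rats correlated at 0.01 on average over 10 pairs, so the number is not taken to pair rats. The 4 named interactions kept their sign in all settings, with an adjusted p under 0.05 only in the edgeR fit with no low-count filter. A setting that left 1 saline rat in a cohort assumes that it varies like the other groups. The settings without 1 rat or with a single cohort rest on fewer rats than the main fit, so 0 calls there say little. The setting of females without L2 was not planned. The 24-library setting used voom only.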

Other observations

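Other classes of features, set by structure in the tables, held no feature that passed the interaction test. Of 569 nuclear features with a single exon shorter than 500 nt, 9 were positive and 13 negative at an unadjusted p under 0.05 (3.87%, against 5.68% of all features), with a median log2 interaction of -0.08. In females 46 were negative and 17 positive, with a median of -0.20, and in males 4 and 15, with a median of -0.02. Over all features 10.3% had such a p in females and 3.33% in males. Of 111 features spanning 500 kb or more, 4 were positive and 5 negative (8.11%), with a median of -0.03. Of 2836 features spanning under 5 kb, 72 were positive and 77 negative (5.25%), with a median of -0.02. The share at an unadjusted p under 0.05 ran from 4.04% on chromosome 19 to 7.16% on chromosome 13 among the numbered chromosomes.

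The first principal component of the per-rat VTA minus NAc differences held 22.6% of the variance over 2000 features. L2 lay at -55.8 on it, and the other 9 rats lay at -13.5 to 27.5. The next component, PC2, held 18.3% of the variance, and PC3 held 13.0%. L1 was lowest on both, at -39.0 on PC2 and -37.3 on PC3. The other 9 rats lay at -21.2 to 32.1 on PC2, with L2 highest, and at -17.0 to 27.6 on PC3. The rank correlation of the VTA minus NAc differences between rats was 0.46 to 0.77 over 45 pairs and 14559 features. Its median was 0.69 between rats of different treatment and 0.67 between rats of the same cohort and treatment.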
